A study of Gelatoporia subvermispora and Trametes versicolor with 24 samples.

Results

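Static and shaken cultures of Trametes versicolor, a wood-decaying white-rot fungus, were compared in the absence of antioxidants. The comparison rests on 6 of the 24 libraries of the series, 3 labelled static and 3 labelled agitated, chosen by their sample titles. The static group, labelled as strain FP-10164, was left standing, and the agitated group, with the same strain label, was shaken at 220 rpm. Both groups grew at 28 °C in 25 mL of Czapek-Dox medium, a defined medium, with 15 mM cellobiose as the sugar. Both received about 2 mM 4-hydroxybenzoate, an aromatic acid related to lignin, after 6 days, and both were harvested 24 h later, on day 7. The induction was thus common to both groups and its own effect is not part of the comparison. The remaining T. versicolor libraries, 3 static and 3 agitated, came from cultures that also received antioxidants, namely ascorbic acid at 5 mM with α-tocopherol at 1 mM. Their counts did not enter the group means compared, but they shared the gene filter, the scaling and the estimate of the spread. Nothing in the labels tells whether replicates grew in flasks of their own. The p-values therefore reflect only how far these samples differ from each other, which may be technical.

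White-rot fungi break down lignin with secreted peroxidases and laccases, enzymes that use hydrogen peroxide or oxygen. Shaking a liquid culture raises the supply of oxygen, exposes the hyphae to shear and usually makes the mycelium grow as pellets, while a standing culture usually forms a mat at the surface. In white-rot fungi the secreted oxidative enzymes are known to depend on such culture conditions. The deposited tables give genes only a running number, with no name or product, so none of these enzymes could be looked up, and genes are described here in groups and 4 by number.

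The depth was 3431340, 5945365 and 5589354 reads assigned to genes in static replicates 1, 2 and 3, and 6725806, 5621837 and 6116725 in agitated replicates 1, 2 and 3. In the static libraries 14.8 to 19.2% of the reads were not aligned, against 15.3 to 18.1% in the agitated ones. Genes with at least 1 read numbered 11971 to 12312 in static and 12184 to 12249 in agitated libraries. The 11 library measures compared gave a lowest p of 0.2 (exact permutation test, two-sided, adjusted p = 0.88), in a design in which 3 against 3 libraries cannot go below 0.1. The 10 most abundant genes took 15.2 to 23.9% of the gene reads in static libraries and 18.2 to 22.1% in agitated ones. Static libraries correlated with each other across genes at 0.980 to 0.987 (log2 CPM, reads scaled to a common library size), agitated ones at 0.955 to 0.972, and static with agitated at 0.903 to 0.940. Agitated replicate 1 stood furthest from its own group, at 0.955 and 0.964.

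More genes fell in static culture than rose under TMM scaling, which sets library sizes by the bulk of the genes, but not under library totals or upper-quartile scaling. Of 10505 genes tested, 1374 were higher in static culture, which is 13.1%, and 1663 were lower, which is 15.8% (edgeR quasi-likelihood test, adjusted p under 0.05). Together these were 3037 genes, or 28.9%. The rises were mostly small, since 882 of the 1374 were below 2-fold, 420 lay between 2- and 4-fold, 68 between 4- and 16-fold, and 4 at 16-fold or more. Among the falls, 843 were below 2-fold and 536 between 2- and 4-fold, while 243 lay between 4- and 16-fold and 41 at 16-fold or more. The median log2 fold change was 0.86 among the rises and -0.99 among the falls, against 0.00 over all tested genes. Without static replicate 1, the shallowest library, the calls numbered 1991, of which 911 were higher and 1080 lower. The split between rises and falls depended on the scaling. TMM put 45.2% of the calls among the rises, while plain library totals, under which the median log2 fold change lay 0.113 higher, gave 1844 rises and 1278 falls, a share of 59.1%. Upper-quartile scaling gave 1599 rises and 1492 falls, a share of 51.7%.

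**Figure D1:**
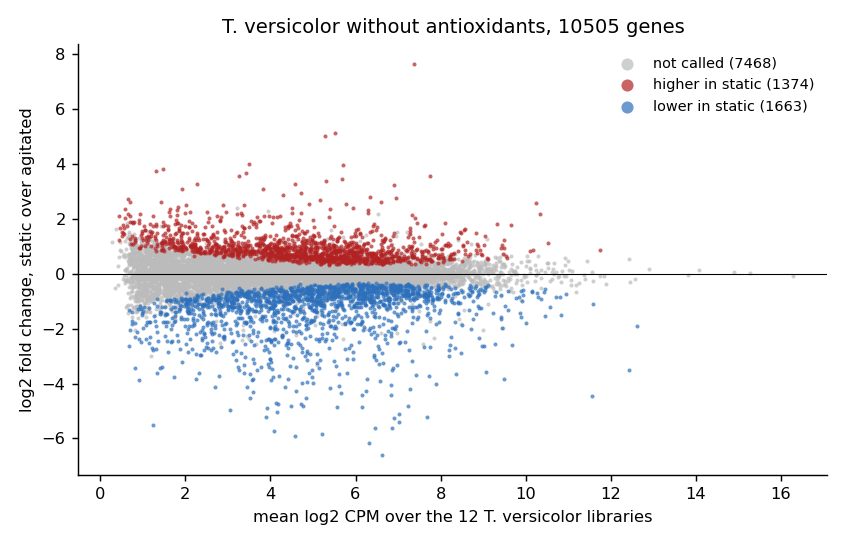
Log2 fold change of each gene (static over agitated, without antioxidants) against its mean log2 CPM, with genes called higher in red, genes called lower in blue and genes not called in grey. Blue points are more numerous than red ones far from 0, with 72 rises and 284 falls at 4-fold or more, while the largest single change is a rise of 7.67.

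A stricter test asked which genes changed by more than 2-fold, not merely by more than 0. It called 252 genes, 2.4% of those tested, and 190 of them were lower and 62 higher in static culture (edgeR glmTreat, adjusted p under 0.05). All 252 were also called in each of the 6 fits of the first test that left out 1 library. Of the 3037 genes called by the first test, 1617 kept their call in all 6 of those fits, 700 higher and 917 lower. The number called at more than 2-fold itself was 152, 167 and 150 without static replicate 1, 2 or 3. It was 343, 376 and 169 without agitated replicate 1, 2 or 3, and 102 with limma-voom.

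For the 7468 genes that were not called, the size of change that the data still allow was read from the 95% interval of the fold change. In 5359 of them, or 71.8%, the interval lay within 2-fold in either direction. In the other 2109 it reached 2-fold or more in at least 1 direction, so a change of that size is not excluded for them.

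Few genes were present in only 1 kind of culture. Of 14570 listed genes, 1851 had no read in any of the 6 libraries. Reads in all 3 static libraries and none in any agitated one were found for 7 genes, and the opposite for 22. None of these had 10 or more reads in every library of the group in which it was present. Genes that were low in one culture and clearly counted in the other were few as well. Below 5 CPM in every static library and at 20 CPM or more in every agitated one stood 9 genes. Their summed level was 20.8, 25.7 and 26.3 CPM in static replicates 1, 2 and 3, against 744, 308 and 848 CPM in agitated ones. The 4 genes with the opposite pattern summed to 392, 857 and 535 CPM in static and 9.31, 12.9 and 5.02 CPM in agitated replicates. These 4 were also the 4 rises of 16-fold or more, and each had 6 to 24 reads in an agitated library, so their agitated levels carry a sizeable counting error. Groups cannot overlap in the 9 genes or in the 4, because the limits of 5 and 20 CPM that chose them keep the groups apart. The sums are thus a description. With antioxidants 2 of the 9 and 2 of the 4 again met the same limits.

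The changed genes shifted a limited part of the transcripts. The 492 genes that were at least 2-fold higher took 4.13, 4.75 and 4.13% of the gene reads in static replicates 1, 2 and 3, against 1.52, 1.59 and 1.19% in agitated ones. The 820 genes at least 2-fold lower took 3.02, 3.33 and 3.25% in static and 10.5, 10.6 and 13.5% in agitated replicates. These genes were chosen by their fold change in the same libraries, so the gap in these libraries is a description. The antioxidant libraries did not enter the group means compared. They did enter the gene filter, the scaling and the estimate of the spread behind the calls. In the antioxidant libraries the same 820 genes took 3.55 to 3.68% of static and 8.97 to 10.8% of agitated gene reads. The 492 genes took 3.48 to 3.93% of static and 1.36 to 1.47% of agitated gene reads there. Genes that were not called held 75.3 to 77.7% of gene reads in static libraries and 70.0 to 72.0% in agitated ones.

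**Figure D2:**
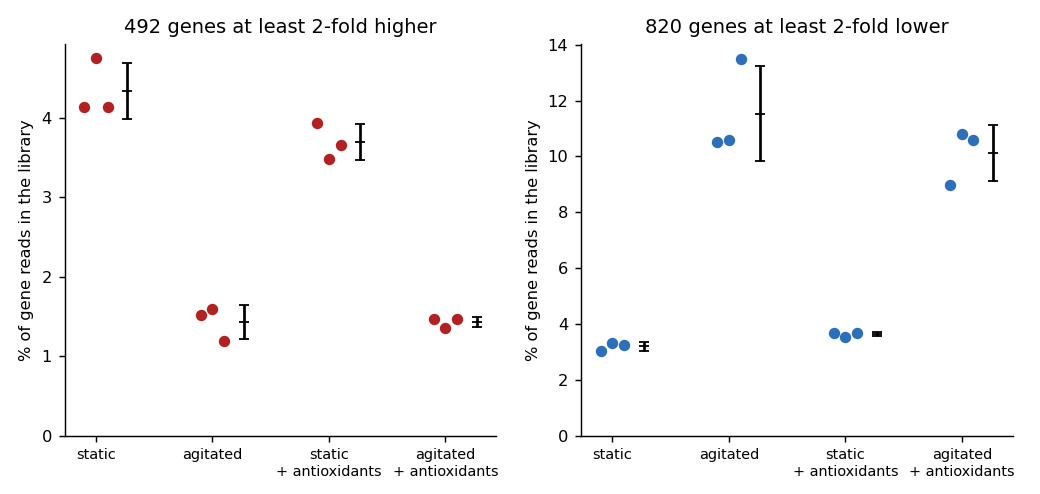
Percent of each library's gene reads in the 492 genes at least 2-fold higher and the 820 genes at least 2-fold lower in static culture without antioxidants. Points are libraries and bars are mean ± SD (n = 3). Counts of the 2 right-hand groups of each panel, with antioxidants, did not enter the group means behind the fold changes.

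A few genes carried much of the summed change in both directions. The differences in mean CPM summed to 127687 CPM over the 1663 genes that fell and to 55235 CPM over the 1374 that rose. The 10 largest made up 26.4% of the first sum and 19.3% of the second, and the 100 largest 56.8% and 52.9%. Both sums rest on TMM-scaled CPM and were not taken under another scaling. As plain shares of gene reads, the falls took a mean of 10.5% in static and 22.4% in agitated culture. The rises took 12.7% and 6.29%, and genes not called 76.7% and 71.2%. The tested genes were also split by mean abundance into 5 classes of 2101 genes. Rises were 9.33% of the least abundant class, 16.8% of the middle one and 11.6% of the most abundant. Falls were 7.81% of the least abundant class, 18.6% of the middle one and 20% of the most abundant, where 421 falls stood beside 244 rises. Weakly counted genes have wider intervals, and the part of this in the low shares of the least abundant class was not tested.

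The most abundant transcripts were largely the same in both cultures. Of the 10 most abundant genes in static and in agitated culture, 7 were shared, and none of these was called. Of the 3 that stood among the 10 in static culture alone, 1 was called higher there. The 3 found among the 10 in agitated culture alone were all called lower in static culture. Among the 100 most abundant, 76 were shared, 14 of them called lower and 1 higher. A further 24 were found in the static list alone, 12 of them called higher, and 24 in the agitated list alone, 19 of them called lower. Over all tested genes, 13.1% were called higher and 15.8% lower. The lists and the calls come from the same libraries, so the counts called in the lists are a description.

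gene1659 had the largest loss of mean CPM among the falls whose groups did not overlap. It stood at 783, 1011 and 957 CPM in static replicates 1, 2 and 3 and at 1230, 13694 and 16577 CPM in agitated ones. Static libraries were close together, while agitated replicate 1 lay just above them and far below agitated replicates 2 and 3. The log2 fold change was -3.52 (SE 0.72, edgeR adjusted p = 0.0056), and by mean CPM the gene ranked 86 in static and 6 in agitated culture. In antioxidant cultures, where no agitated library was low, it stood at 1213, 793 and 1255 CPM in static replicates and 9332, 10823 and 8119 CPM in agitated ones (log2 fold change -3.12, SE 0.71, edgeR adjusted p = 0.01). Without agitated replicate 1 its log2 fold change was -4.04. With only the 6 libraries in the fit the call was lost (edgeR adjusted p = 0.056), and the stricter test for more than 2-fold missed the threshold (glmTreat adjusted p = 0.052).

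gene10076 had the fall with the smallest p among the better-counted genes whose groups did not overlap. Static replicates 1, 2 and 3 had 7.69, 5.53 and 6.22 CPM, from 27, 38 and 36 reads, and agitated replicates had 201, 196 and 145 CPM, from 1358, 1098 and 865 reads. The groups lay far apart and each was tight. The log2 fold change was -4.82 (SE 0.29, 95% interval -5.45 to -4.20, edgeR adjusted p = 8.2e-07), a level 28.3 times as high in agitated as in static culture. In antioxidant cultures static replicates had 9.68, 5.76 and 15.6 CPM and agitated ones 435, 378 and 386 CPM. The agitated level with antioxidants was thus above each of the agitated levels without them, while the static effect itself was not called different (difference in log2 fold change -0.43, SE 0.38, edgeR adjusted p = 0.97).

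gene3978 had the rise with the smallest p among the better-counted genes whose groups did not overlap. It was counted at 76.6, 95 and 87.2 CPM in static replicates 1, 2 and 3, against 7.24, 9.11 and 7.03 CPM in agitated ones, from 42 to 51 reads. The means were 86.3 ± 9.2 CPM in static and 7.79 ± 1.15 CPM in agitated culture (SD, n = 3 each). No library came near those of the other group. The log2 fold change was 3.47 (SE 0.18, 95% interval 3.09 to 3.85, edgeR adjusted p = 1.9e-07), or 11.1-fold. In antioxidant cultures the gene stood at 117, 83.5 and 115 CPM in static replicates, against 6.66, 5.55 and 6.44 CPM in agitated ones.

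gene6798 gained the most CPM among the rises whose groups did not overlap. Its levels were 3272, 5724 and 3960 CPM in static replicates and 2485, 3056 and 1606 CPM in agitated ones, so the lowest static library lay close to the highest agitated one. By mean CPM the gene ranked 10 in static and 27 in agitated culture. Its log2 fold change of 0.86 (SE 0.30, edgeR adjusted p = 0.047) was near the threshold. The call was lost without static replicate 2 (log2 fold change 0.60, edgeR adjusted p = 0.19), without static replicate 3 or agitated replicate 1 (both 0.08), without agitated replicate 3 (0.15), with only the 6 libraries (0.051) and with the replicate number as a block (0.057). With antioxidants the gene stood at 5330, 2947 and 4477 CPM in static and 3654, 2338 and 2425 CPM in agitated replicates, groups that overlapped (log2 fold change 0.60, SE 0.30, edgeR adjusted p = 0.15).

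**Figure D3:**
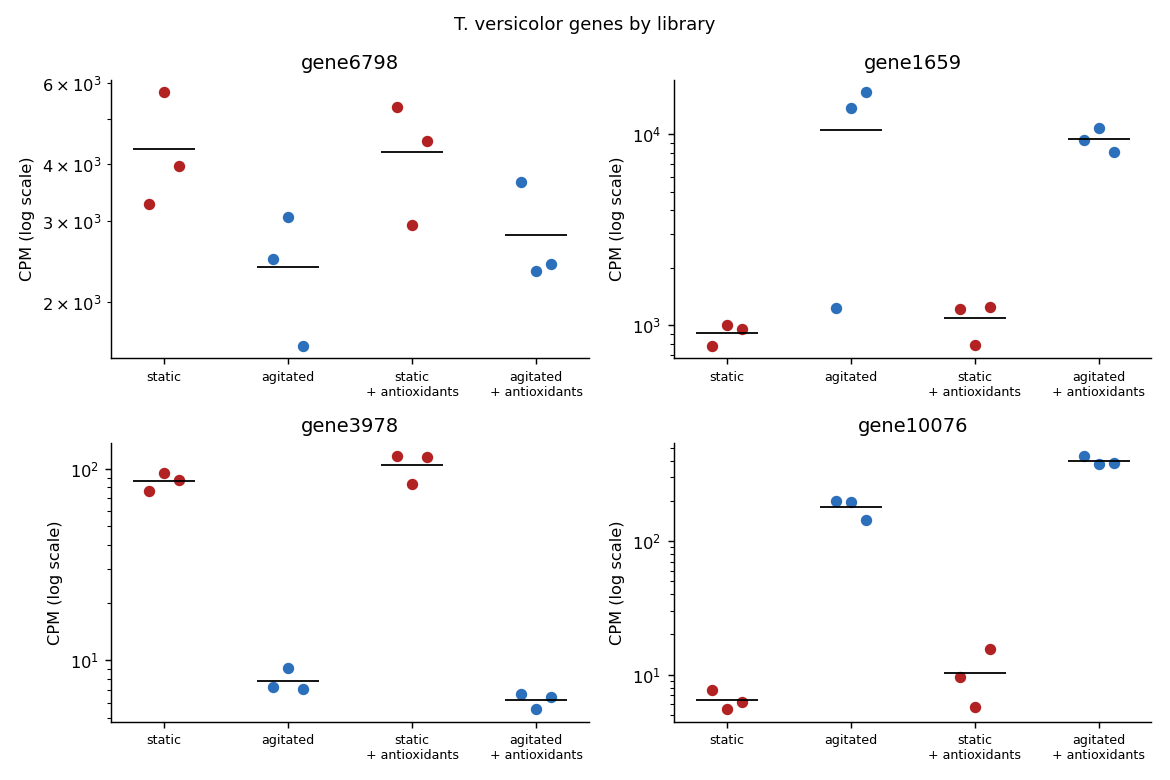
CPM on a log scale of the 4 genes in each of the 12 T. versicolor libraries, with a line at the mean of each group of 3. gene3978 and gene10076 keep static and agitated libraries far apart in both antioxidant states, and the low agitated point of gene1659 is replicate 1 without antioxidants.

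Gene by gene the agitated libraries were the more variable group, while without antioxidants library-wide measures varied more among the static ones. Without antioxidants the SD was larger in static culture for all 11 library measures. For the share of the 10 most abundant genes it was 4.46 percentage points in static and 2.06 in agitated culture. This did not recur with antioxidants, where that share ran from 25.8 to 29.1% in static and, more widely, from 15.3 to 23.2% in agitated libraries. None of these spreads was tested against each other. The biological coefficient of variation, fitted to each group alone, was 13% in static and 25.8% in agitated culture. It was 12% in static and 25.2% in agitated culture with antioxidants. Across pairs of libraries, the share of reads that would have to move to another gene to make the pair alike was 6.67 to 13% between static replicates and 12.1 to 14.5% between agitated ones. The ranges within the groups overlapped. Between static and agitated libraries it was 16 to 20.9% over the 9 pairs, above every pair within a group.

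Among agitated libraries without antioxidants, the genes that fell had a wider median spread than the genes that rose or were not called. Spread was taken as the highest over the lowest CPM of the 3 libraries, in genes with at least 10 reads in each of the 6. Among 1427 such genes of the 1663 that fell, the median ratio was 1.27 in static and 1.46 in agitated culture, and in 72.8% of them it was larger in agitated culture. Among 1217 of the 1374 that rose it was 1.28 in static and 1.30 in agitated culture, with 54% larger in agitated culture. Among 6215 not called it was 1.27 in static and 1.33 in agitated culture, with 59.2%. The read minimum leaves out genes that were low in 1 of the cultures, so these are not all the genes called, and the values are a description.

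For the changes of 4-fold or more, the 4 T. versicolor groups were read over the same genes, those with at least 10 reads in each of the 12 libraries. Of the 284 falls, 168 met this, and the libraries differed by over 2-fold for 9 of them in static culture and for 128, or 76.2%, in agitated culture. Of the 72 rises, 39 met it, with 7 such genes in static and 22, or 56.4%, in agitated culture. With antioxidants the same falls differed by over 2-fold for 9.52% in static and 52.4% in agitated culture, and the same rises for 12.8% in static and 51.3% in agitated culture. Among 6059 genes not called that met the same minimum, the share was 3.22% in static and 9.19% in agitated culture. With antioxidants it was 2.56% in static and 12.4% in agitated culture. Large rises and large falls were thus both uneven among agitated libraries in either state. The part of counting error in these ratios was not tested. The wider median of the falls as a whole did not recur with antioxidants, where the agitated median was 1.34 for falls, 1.35 for rises and 1.38 for genes not called. The spread among the antioxidant libraries entered the estimate behind the calls, so these values are not independent of the choice of genes.

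**Figure D4:**
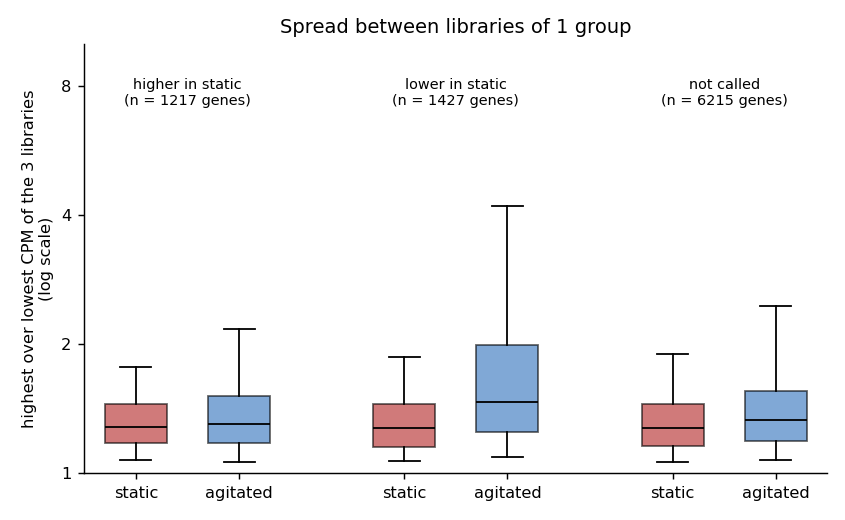
Highest over lowest CPM among the 3 static and the 3 agitated libraries without antioxidants, for genes with at least 10 reads in each of the 6 libraries. Boxes span the quartiles with a line at the median and whiskers reach the 5th and 95th percentiles; the agitated box of the genes that fell is the widest, with a median of 1.46.

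The falls of 4-fold or more did not all follow the same agitated library. Agitated replicate 3 had the highest level in 49.3% of the 284 falls of 4-fold or more, replicate 1 in 37.7% and replicate 2 in 13%. Among genes not called, replicate 3 was highest in 31%, replicate 1 in 32.8% and replicate 2 in 36.2%. Agitated replicate 2 was the lowest of the agitated libraries in 57.7% of these falls, and it was the highest in 69.4% of the 72 rises of 4-fold or more. In 131 of the 1663 falls, at least 1 agitated library lay inside the static range or below it. The lowest agitated library was replicate 1 in 73 of them, replicate 2 in 50 and replicate 3 in 8. Groups overlapped in 26 of the 1374 rises and in 5727 of the 7468 genes not called. Over all tested genes, they did not overlap in 22.1% with static above agitated and in 21.9% with static below. Without agitated replicate 1 the test called 1466 falls and 1089 rises, and without replicate 2 it called 1597 and 1244. Without agitated replicate 3 it called the fewest of these fits, 1151 falls and 955 rises.

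The next running number after a called gene was called the same way somewhat more often than over all adjacent pairs, though mostly it was not. The sources used here do not say that the numbers follow the order along the genome. After a gene called higher, the next number was called higher in 19.6% of 1159 tested pairs, against 13.5% over all 8728 adjacent pairs. After a gene called lower, the next number was called lower in 24.9% of 1381 pairs, against 15.9%. The opposite call followed in 11.2% of the pairs after a rise and 8.47% of those after a fall. The correlation of log2 fold changes between tested neighbours was weak, at 0.175, and was 0.072 for numbers 2 apart and 0.011 for numbers 50 apart. Runs of 3 or more consecutive numbers called lower numbered 60 and held 200 genes, 12% of the falls, and the 27 runs called higher held 90 genes, 6.55% of the rises. Overlapping neighbours can share reads where the strand setting of the counting is not stated, and the part of this in the runs was not tested.

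The longest run of rises held 6 genes with log2 fold changes of 0.40 to 0.68, of which 2 kept their call in all 6 fits that left out 1 library. Together they stood at 1386, 1001 and 1370 CPM in static replicates and 817, 864 and 757 CPM in agitated ones. Only 1 of the 6 was called higher with antioxidants. There were 5 runs of 5 falls. In these, 2 to 4 of the 5 genes kept their call in all 6 such fits, and 2 did in the steepest run. That run had log2 fold changes of -5.75 to -2.45 and summed to 21.1, 26.2 and 18.7 CPM in static replicates and to 904, 84.0 and 720 CPM in agitated ones. With antioxidants the run summed to 18.5, 11.5 and 23.7 CPM in static and 17.6, 179 and 240 CPM in agitated replicates, so 1 agitated library lay within the static range, and 1 of its 5 genes was called lower there. In another run the genes summed to 573, 733 and 715 CPM in static and 1564, 1100 and 1366 CPM in agitated replicates, and 4 of its 5 genes were called lower with antioxidants too. The 3 remaining runs had 5, 3 and 4 genes called lower with antioxidants.

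Whether the changes recurred was read in the 6 antioxidant libraries. They share no library with the comparison but share its gene filter, scaling and estimate of the spread. In those cultures 13.2% of the tested genes were called higher in static culture and 13.9% lower. Of the 1374 rises, 894 or 65.1% were called higher there too, and none was called lower. Of the 1663 falls, 1046 or 62.9% were called lower there and 14 higher. The direction was the same for 98.8% of the rises and 95.8% of the falls, against 74.3% of the genes not called. The share called the same way grew with the size of the change. Among rises it was 56.9% below 2-fold, 78.3% between 2- and 4-fold and 86.8% between 4- and 16-fold. Among falls it was 57.7, 65.3 and 72.4%, and 34 of the 41 falls of 16-fold or more were called again. The medians were nearer 0 with antioxidants. The median log2 fold change of the falls was -0.77 with and -0.99 without antioxidants, and that of the rises was 0.73 with and 0.86 without. The genes were called without antioxidants, so smaller values in other libraries are a common result of that choice, and the medians were not tested against each other. Across all 10505 genes the log2 fold changes in the 2 states had Pearson's r = 0.833 and Spearman's rho = 0.790, as a description, since genes are not independent replicates.

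The static effect itself differed between the antioxidant states for 15 genes, 0.143% of those tested (edgeR quasi-likelihood test of the difference, adjusted p under 0.05), with 547, or 5.21%, at an unadjusted p under 0.05. For 14 of the 15 the effect was more positive with antioxidants. With antioxidants these 14 genes summed to 993, 1106 and 920 CPM in static and 261, 287 and 290 CPM in agitated replicates. Without antioxidants the same genes summed to 305, 284 and 279 CPM in static and 339, 323 and 344 CPM in agitated replicates. Static libraries with antioxidants were thus the high ones, while the other 3 groups lay between 261 and 344 CPM. The genes were chosen by their difference in these same libraries, so the sums are a description. Of the 14 genes, 7 were called lower and 1 higher in static culture without antioxidants, and all 14 were called higher with them. The single gene with the opposite difference stood at 6.10, 4.21 and 5.70 CPM in static and 11.9, 23.1 and 22.5 CPM in agitated replicates with antioxidants, and at 5.41, 5.23 and 8.64 CPM in static and 4.14, 4.82 and 2.51 CPM in agitated ones without. The number of genes called for this difference was 8 without static replicate 3 and 9 without static antioxidant replicate 2, and DESeq2 called 64.

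**Figure D5:**
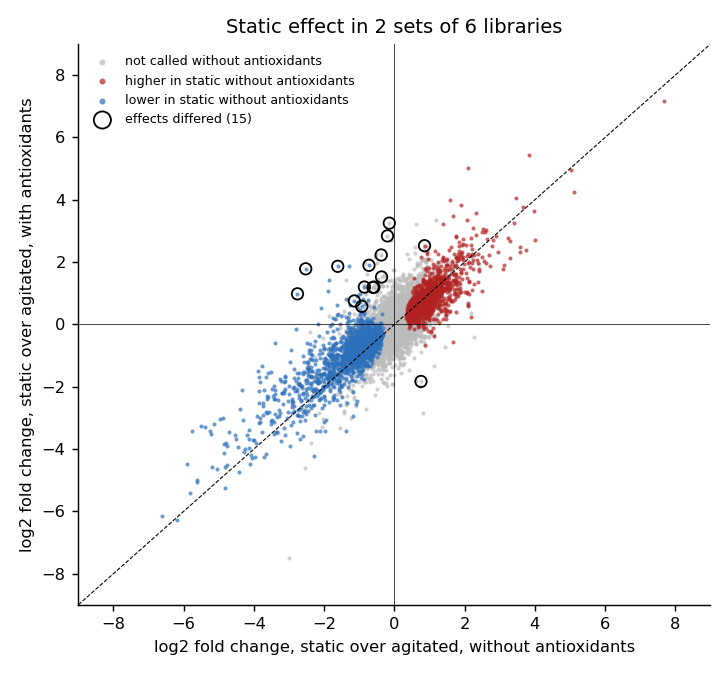
Log2 fold change of each gene, static over agitated, with antioxidants (vertical) against without (horizontal), from separate sets of 6 libraries, with genes coloured by their call without antioxidants and a dashed line where both are equal. Most coloured points lie on the same side of 0 on both axes, and the 15 ringed genes are those whose effects differed.

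All levels above are shares of the sequenced RNA of whole mycelium. A change in the amount of 1 kind of hypha and a change in its RNA cannot be told apart in them.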

How the data were processed

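The deposited tables hold raw read counts per gene from the authors, 1 table per library, not normalised. Per the submitters' processing notes FastQC, Bowtie2, Bowtie and HTSeq were used, without a version or a step for any. Strand setting, annotation and genome build: not given in the sources used here. Per the labels' protocols, libraries came from a stranded total RNA kit. The 5 HTSeq summary lines of each table, 38.2 to 45.4% of its reads here, were left out of library sizes and tests.

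Counts of the 12 T. versicolor libraries were fitted with edgeR 4.0.16 in R 4.3.3 as 4 group means (filterByExpr, TMM, robust quasi-likelihood, 8 residual degrees of freedom), and p-values were adjusted by the Benjamini-Hochberg method over all 10505 genes. CPM values use TMM-scaled library sizes, correlations log2 CPM with a prior count of 2, and intervals come from the moderated standard error; errors cover the spread between libraries, and counting error matters for genes with few reads. Static and agitated totals of 3431340 to 6725806 reads set the precision. The code was tested on simulated data. Alternatives were other scalings (library totals, RLE, upper quartile) and filters, DESeq2 1.42.0, limma-voom 3.58.1, a fit of 2 groups, a replicate block and leaving out each library, plus, chosen after seeing the data, library quality weights and thinned counts.

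The 4 genes given by number passed adjusted p under 0.05, averaged 3 or more in log2 CPM and had groups that did not overlap; they are the rise and fall with the largest difference in mean CPM, then those with the smallest p. Gene lists by function could not be filled, because the files pair no number with a name. The comparison, the groups of genes and the rules were chosen with earlier results of these data known.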

Additional observations from a re-analysis of the deposited data

Results flagged for a closer look

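The static effect differed between cultures with and without antioxidants for 15 genes, by a direct test of the difference (edgeR quasi-likelihood test, adjusted p under 0.05). The log2 differences ran from 1.51 to 4.31 in 14 of them and were -2.59 in the last. For 14 of the 15 the effects had opposite signs in the 2 states, with a median log2 fold change of 1.52 with antioxidants and -0.61 without. The 15 were chosen by this difference, so the gap between the medians is a description. None of the 4 genes given by number was among them.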

How the results depend on the processing

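None of the 4 genes given by number changed direction in any setting, but the balance of rises and falls did: falls were more numerous under TMM and rises under library totals and upper-quartile scaling. Leaving out 1 library at a time gave 1991 to 2841 called genes, 911 to 1244 higher and 1080 to 1597 lower, 150 to 376 at more than 2-fold, 1688 to 2846 with antioxidants (lowest without static antioxidant replicate 2) and 8 to 19 for the difference of effects, where such a fit has fewer samples. limma-voom called 102 genes at more than 2-fold, and rises were 59.1% of all calls with library totals, 51.7% with upper-quartile and 43.7% with RLE scaling. DESeq2 called 64 genes for the difference of effects; limma-voom with library quality weights, a setting chosen after seeing the data, called 47 there and 4627 with antioxidants; the cause was not tested. The other 71 alternative counts and shares outside the leave-one-out fits stayed within 1.5 times, or within 10 percentage points for the share, of the reported value. Thinned to the shallowest library, also chosen after seeing the data, 2664 genes were called.

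Static and agitated libraries with the same number correlated in their deviations from the group means at 0.077, -0.016 and -0.051. Pairs with different numbers ran from -0.073 to 0.111, so pairs of the same number did not stand out. So few values cannot exclude that cultures of the same number were handled together. With the number as a replicate block 2767 genes were called. Over 17 settings the log2 fold change of gene3978 ran from 3.40 to 3.62, of gene10076 from -4.95 to -4.71, of gene1659 from -4.04 to -2.87 (call lost in 1) and of gene6798 from 0.60 to 1.08 (call lost in 6). Of the 60 runs of falls and 27 of rises, 15 and 6 held 4 or more genes.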
